A study of Hordeum vulgare with 6 samples.

Results

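The genes of trehalose metabolism, sucrose metabolism and sugar transport were examined in young barley panicles. Members were all genes whose description names trehalose, sucrose synthase, sucrose-phosphate synthase, invertase or fructofuranosidase, a SWEET, or a sucrose, sugar or hexose transporter, which gave 206 of the 40411 genes in the table. Of these, 33 share only a word with the pathway (23 of the invertase/pectin methylesterase inhibitor family and 10 nucleotide sugar transporters) and were set apart. The remaining 173 comprise 33 trehalose genes, 20 genes of sucrose synthase and sucrose-phosphate synthase, 48 invertase genes and 72 transport genes. RNA-seq was made from panicles of 0.5 to 1 cm, with 3 biological replicates each of *msnsd*, a recessive dwarf mutant with many stem nodes and several spikes per tiller, and E934, the feed barley variety from which it was obtained by EMS and cobalt irradiation. The mutant is a single line, so the effect of its causal gene cannot be told apart from that of other mutations it may carry. Panicles were collected whole, and less RNA of a gene per cell and fewer cells expressing it cannot be told apart.

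Sucrose is the form in which grasses move carbon into growing spikes. It is unloaded by SWEETs, which pass sugars down a gradient, and by sucrose and hexose transporters driven by protons. Invertases split it irreversibly to glucose and fructose. Acid forms lie in the cell wall and in the vacuole, and alkaline or neutral forms in the cytosol and organelles. Sucrose synthase instead splits sucrose reversibly to UDP-glucose and fructose. Sucrose-phosphate synthase makes it anew. Trehalose 6-phosphate, made by trehalose phosphate synthase and removed by trehalose phosphate phosphatase, is a signal of sucrose supply that acts in part through the kinase SnRK1. In maize the phosphatase gene RAMOSA3 restrains branching of the inflorescence.

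On the principal components of all genes tested, E934 replicate 3 lay apart on the second, at 104. Replicate 1 of *msnsd* (-50.0) and replicate 1 of E934 (-49.0) lay together on the other side, and the remaining libraries ran from -3.95 to 1.71. Values are TPM, which divide reads by transcript length and scale each library to the same total (999916 to 999936 here), so levels can be compared between genes but depth is unknown. Genes that mark developing spikes were present. The 59 MADS-box genes summed to 1201 to 1232 TPM in *msnsd* and 1301 to 1440 TPM in E934, and 10 KNOX-type genes to 227 to 247 TPM and 228 to 240 TPM. Among other tissues, 109 genes of green tissue summed to 1327 to 1725 TPM in *msnsd* and 1223 to 1607 TPM in E934, 4 phloem protein genes to 27.6 to 29.8 TPM and 25.1 to 29.4 TPM, 10 seed storage genes to 63.7 to 71.1 TPM and 59.1 to 87.2 TPM, and 33 pollen or anther genes to 435 to 449 TPM and 402 to 460 TPM.

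Genes averaging 0.1 TPM or more were tested with limma, apart from 28 genes, 2 of them members, whose mean of 0.1 fell just below the limit through rounding in the computation. The test was made on log2(TPM + 0.1), and a positive log2 fold change means more in *msnsd*. The added 0.1 shrinks the change of low genes. A gene was past the threshold if its log2 fold change was 1.5 or more in either direction with an adjusted p no higher than 0.05. In all 132 of the 173 genes passed the filter, and the 41 that did not had a mean of at most 0.1 TPM. None of the 132 was past the threshold (0 genes), against 0.0485% of all genes tested, 0.0212% in the direction of *msnsd* and 0.0273% in that of E934. In 22 of 132 (16.7%) the unadjusted p was under 0.05, 11 higher and 11 lower in *msnsd*, against 10.7% of all genes tested (5.58% higher and 5.09% lower). The genotypes were free of overlap for 31 of 132 (23.5%), 17 higher and 14 lower, against 16.6% of all genes tested (8.73% higher and 7.86% lower). The median log2 fold change was -0.05, and -0.02 over all genes tested. The smallest p that the exact permutation test can give for 3 libraries against 3 is 0.1.

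**Figure D1:**
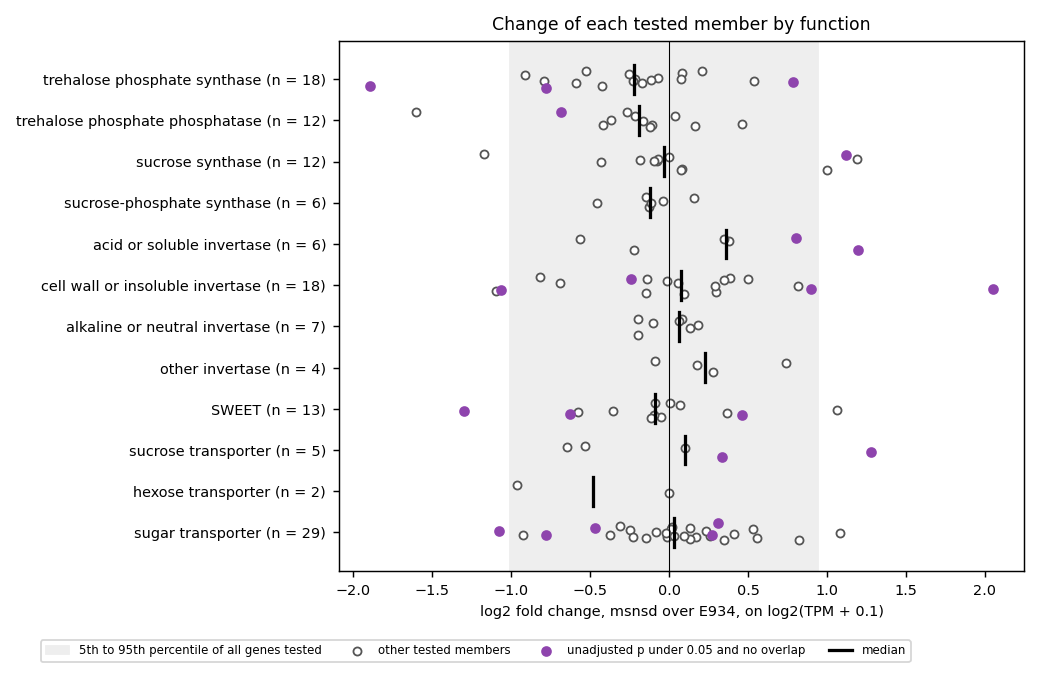
Log2 fold change of each tested member (x axis, *msnsd* over E934 on log2(TPM + 0.1)) by function (y axis), with n tested in brackets. Filled points are genes with an unadjusted p under 0.05 and no overlap between genotypes, black lines are medians, and the grey band runs from the 5th to the 95th percentile of all genes tested (-1.01 to 0.94). The acid or soluble invertases, with 6 genes tested, have the highest median (0.36). It lies between the low genes 2HG0184450 (0.38, mean 0.75 TPM) and 6HG0542040 (0.34, mean 0.45 TPM), in which the genotypes overlap. The farthest point to the right is a cell wall invertase (2.05).

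The clearest difference lay in 2 of the genes described as acid or soluble invertases, a description that does not name the compartment. HORVU.MOREX.r3.7HG0635300, annotated as acid invertase 1 (Morex V3, chromosome 7H, 2749117 to 2752281), had 227, 255 and 237 TPM in *msnsd* libraries and 101, 113 and 98.8 TPM in E934 libraries. Every *msnsd* library held more than every E934 library. Means were 240 ± 14.1 TPM in *msnsd* and 104 ± 7.80 TPM in E934 (SD, n = 3), a ratio of 2.30. It was higher by 1.20 on the log2 scale, its standard error was 0.08, and the adjusted p from limma was 0.0124 over all genes, so it rose by the adjusted p but not by the fold change threshold. Among all genes tested 22 (0.0667%) had an adjusted p of at most 0.05. Without the mean-variance trend the adjusted p of this gene was 0.0566. When each library was left out it ran from 0.0718 to 0.169 with log2 fold changes from 1.15 to 1.26, and with the replicate number as a block it was 0.206.

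A neighbour with the same description, HORVU.MOREX.r3.7HG0635170 (chromosome 7H, 2583658 to 2587436), had 75.6, 65.6 and 65.2 TPM in *msnsd* and 44.0, 40.1 and 34.6 TPM in E934. The genotypes did not overlap. The log2 fold change of this copy came to 0.80 (limma standard error 0.11, adjusted p = 0.0748). Its adjusted p was 0.175 without the mean-variance trend and 0.230 with the replicate number as a block. When each library was left out it ran from 0.0863 to 0.324. These 2 genes lie in a stretch of 412 kb with 6 invertase genes, 5 of them in the acid or soluble group. The other 4 were at or near 0, with means of 0.005 to 0.177 TPM, and only 1 of them was tested. The file gives both abundant genes the protein domain typical of the family. In grasses the enzymes that build fructans belong to the same family as vacuolar invertases, and a description cannot separate them. A gene described as a sucrose:fructan 6-fructosyltransferase, which is not a member, lies in the same stretch. It is the low-confidence model HORVU.MOREX.r3.7HG0635220 (2665944 to 2666444), with a mean of 0.032 TPM. The 10 acid or soluble invertase genes together held 304, 323 and 304 TPM in *msnsd* and 147, 155 and 135 TPM in E934. This sum was more than the cell wall and the alkaline or neutral groups held in any *msnsd* library.

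Cell wall invertases, which split sucrose outside the cell where it is unloaded, had 4 of 18 tested genes with an unadjusted p under 0.05, 2 higher and 2 lower in *msnsd* (22.2%, against 10.7% of all genes tested), and none past the threshold. HORVU.MOREX.r3.2HG0166450, a cell wall invertase (chromosome 2H, 463137922 to 463141663), had 21.2, 13.6 and 19.6 TPM in *msnsd* and 3.67, 3.62 and 5.64 TPM in E934. The genotypes were far apart, with means of 18.1 ± 3.99 and 4.31 ± 1.15 TPM for *msnsd* and E934 (SD, n = 3). The log2 fold change, 2.05 (standard error 0.24), was the highest among the 132 genes, and its limma adjusted p of 0.0598 missed the threshold. When only genes averaging at least 1 TPM were tested the adjusted p was 0.0469 and the gene was past the threshold. In the other limma fits it was 0.0744 with every gene tested, 0.104 without the mean-variance trend and 0.230 with the replicate number as a block. When each library was left out it ran from 0.101 to 0.321. Another cell wall invertase on chromosome 4H, HORVU.MOREX.r3.4HG0413910, was low, with 2.01, 1.19 and 1.46 TPM in *msnsd* and 0.71, 0.83 and 0.77 TPM in E934 (log2 fold change 0.90, limma adjusted p = 0.356).

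HORVU.MOREX.r3.2HG0200390, an insoluble invertase (chromosome 2H, 623901699 to 623914622), was the most abundant of the cell wall group. It had 15.98, 19.43 and 17.8 TPM in *msnsd* and 11.2, 80.0 and 60.5 TPM in E934. Replicate 1 of E934 lay below all *msnsd* libraries and the other E934 libraries lay far above them, so the log2 fold change of -1.10 had a standard error of 0.67 (limma adjusted p = 0.588). Without E934 replicate 1 the log2 fold change was -1.97 with an adjusted p of 0.0759. Lower in *msnsd* without overlap were HORVU.MOREX.r3.6HG0548270 (0.45, 0.36 and 0.30 TPM in *msnsd*, 0.91, 1.04 and 0.71 TPM in E934, log2 fold change -1.07, limma adjusted p = 0.350) and its neighbour HORVU.MOREX.r3.6HG0548290 (15.7, 15.3 and 13.6 TPM in *msnsd*, 17.3, 18.9 and 16.6 TPM in E934, log2 fold change -0.24, limma adjusted p = 0.468).

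In all, 6 of 35 tested invertase genes had an unadjusted p under 0.05, 4 higher and 2 lower in *msnsd* (17.1%, against 10.7% of all genes tested), and the median log2 fold change was 0.09. Of the alkaline or neutral invertases 0 of 7 tested had an unadjusted p under 0.05, against 10.7% of all genes tested. Without overlap 2 of the 7 were higher in *msnsd* (28.6%, against 8.73% of all genes tested). These counts are too small to read as a result about the group. All 7 lay between -0.20 and 0.18 on the log2 scale, and the most abundant of them, HORVU.MOREX.r3.6HG0582640, had 59.9, 50.4 and 59.2 TPM in *msnsd* and 56.0, 73.5 and 65.3 TPM in E934 (log2 fold change -0.20, standard error 0.12, limma adjusted p = 0.592). The whole invertase class summed to 559 ± 12.2 TPM in *msnsd* and 417 ± 59.6 TPM in E934 (SD, n = 3). Without its most abundant gene, the acid invertase of 7H named first, it summed to 319 TPM in *msnsd* and 313 TPM in E934.

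**Figure D2:**
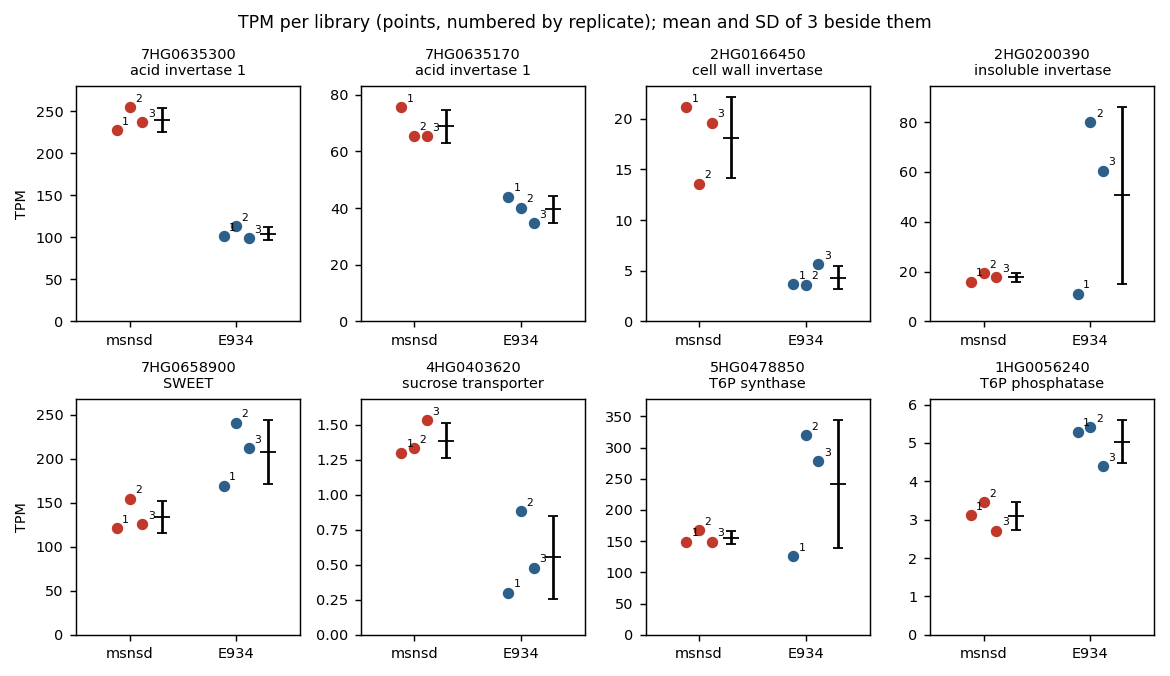
TPM (y axis, from 0) of 8 members in each library, with points numbered by replicate, *msnsd* in red and E934 in blue, and the mean and SD of 3 libraries in black. The genotypes are apart in both acid invertases, the cell wall invertase, the SWEET, the sucrose transporter and the trehalose phosphate phosphatase. For the insoluble invertase 2HG0200390 and the trehalose phosphate synthase 5HG0478850 (T6P synthase) E934 replicate 1 (11.2 and 126 TPM) lies below every *msnsd* library.

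Many invertase genes lie next to one another. When genes less than 1 Mb apart were joined, 11 groups of at least 3 members held 42 of the 173 genes, and 26 of the 42 were invertases. Copies in a group differed in level and in sign in several groups. On 7H both abundant acid invertases were higher in *msnsd*, as given above. On 6H, HORVU.MOREX.r3.6HG0548250 averaged 13.4 TPM in *msnsd* and 10.8 TPM in E934 beside 2 neighbours that were lower in *msnsd*. Its genotypes overlapped (log2 fold change 0.38, standard error 0.34), and without E934 replicate 1 the log2 fold change was -0.0077. On 2H, the gene HORVU.MOREX.r3.2HG0200390 stood at 17.7 TPM in *msnsd* and 50.5 TPM in E934 among 3 neighbours with means of 0.102 to 2.94 TPM over all libraries. On 3H, HORVU.MOREX.r3.3HG0223770 and HORVU.MOREX.r3.3HG0223830 had nearly the same levels, with means of 17.0 and 17.8 TPM in *msnsd* and 18.9 and 19.8 TPM in E934. These neighbours were chosen after their values were seen, and how the quantification split reads between similar copies was not tested.

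**Figure D3:**
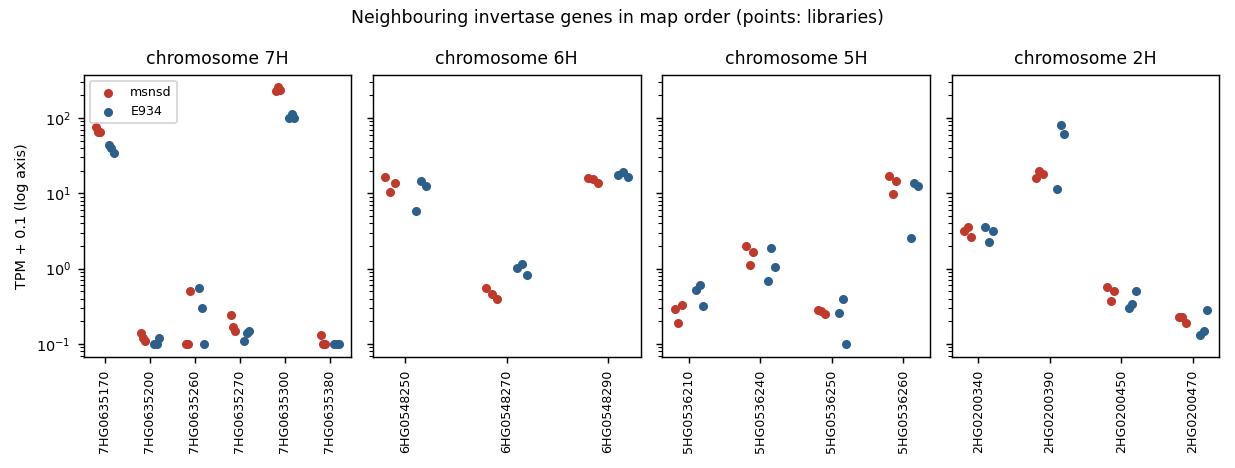
TPM + 0.1 (y axis, log scale) of neighbouring invertase genes in map order (x axis), with 1 point per library, *msnsd* in red to the left of E934 in blue. In each stretch 1 or 2 genes carry nearly all of the TPM, and on 7H the 2 abundant copies, with means of 68.8 and 240 TPM in *msnsd* and 39.5 and 104 TPM in E934, are the ones without overlap.

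Of 18 tested genes of sucrose synthase and sucrose-phosphate synthase, 2 had an unadjusted p under 0.05 (11.1%, against 10.7% of all genes tested), and the median log2 fold change was -0.07. The class summed to 272 ± 8.35 TPM in *msnsd* and 290 ± 46.5 TPM in E934 (SD, n = 3). HORVU.MOREX.r3.7HG0661420, a sucrose synthase (chromosome 7H, 66480499 to 66485899) that held 47.9% of the TPM of the class, had 121, 127 and 140 TPM in *msnsd* and 96.8, 160 and 163 TPM in E934. The *msnsd* libraries lay between E934 replicate 1 and the other E934 libraries (log2 fold change -0.08, standard error 0.20, limma adjusted p = 0.916).

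None of the 6 sucrose-phosphate synthase genes had an unadjusted p under 0.05, against 10.7% of all genes tested. HORVU.MOREX.r3.6HG0568070 had 40.2, 39.8 and 36.7 TPM in *msnsd* and 40.8, 41.3 and 37.7 TPM in E934 (log2 fold change -0.04, standard error 0.08, limma adjusted p = 0.890). The gene HORVU.MOREX.r3.UnG0753160, on unplaced sequence, had 34.7, 34.7 and 32.9 TPM in *msnsd* and 32.3, 43.0 and 37.2 TPM in E934 (log2 fold change -0.13, standard error 0.11, limma adjusted p = 0.714). The genotypes overlapped in both. In HORVU.MOREX.r3.7HG0745120, chosen after its values were seen, they did not, with 17.4, 16.2 and 16.2 TPM in *msnsd* and 18.3, 19.2 and 17.7 TPM in E934 (log2 fold change -0.15, standard error 0.09, limma adjusted p = 0.575). The low-confidence gene HORVU.MOREX.r3.2HG0173640 had 0.49, 4.42 and 2.40 TPM in *msnsd* and 2.37, 3.7 and 1.74 TPM in E934, also with overlap (limma adjusted p = 0.851).

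The larger differences of this class were in sucrose synthase genes with little RNA. HORVU.MOREX.r3.2HG0188120 (chromosome 2H, 590739004 to 590743399) had 0.24, 0.24 and 0.28 TPM in *msnsd* and 0.04, 0.07 and 0.08 TPM in E934. The genotypes did not overlap (log2 fold change 1.12, standard error 0.45, limma adjusted p = 0.447), and the difference was 0.24 when 1 was added to the TPM and 1.88 when 0.01 was added. The low-confidence gene HORVU.MOREX.r3.7HG0661320 had 0.62, 0.90 and 1.78 TPM in *msnsd* and 3.17, 2.98 and 1.43 TPM in E934, with overlap (log2 fold change -1.17, limma adjusted p = 0.436). The low-confidence gene HORVU.MOREX.r3.2HG0165240 was listed at 0 in all libraries except *msnsd* replicate 3, where it had 1.09 TPM.

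Trehalose phosphate synthases were the most abundant group of all, and their level varied mainly among E934 libraries. The 19 genes summed to 607, 646 and 574 TPM in *msnsd* and 541, 945 and 819 TPM in E934. HORVU.MOREX.r3.5HG0478850 (chromosome 5H, 422839721 to 422843633) had 149, 168 and 149 TPM in *msnsd* and 126, 320 and 278 TPM in E934. HORVU.MOREX.r3.6HG0622920 (chromosome 6H, 534669744 to 534673775) had 76.8, 83.9 and 80.9 TPM in *msnsd* and 62.5, 157 and 129 TPM in E934. In both genes E934 replicate 1 was the lowest library and the other E934 libraries were the highest. Their log2 fold changes of -0.53 (standard error 0.32, limma adjusted p = 0.587) and -0.43 (standard error 0.31, limma adjusted p = 0.654) became -0.94 (adjusted p = 0.0782) and -0.82 (adjusted p = 0.0865) without E934 replicate 1.

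HORVU.MOREX.r3.7HG0652770, a low-confidence model of 315 bp described as trehalose phosphate synthase, had 209, 224 and 177 TPM in *msnsd* and 196, 274 and 242 TPM in E934, with overlap (log2 fold change -0.22, limma adjusted p = 0.615). Among synthase genes with less RNA, HORVU.MOREX.r3.1HG0077190 (chromosome 1H, 477443040 to 477450255) was higher in *msnsd*, at 3.56, 4.19 and 3.61 TPM against 3.54, 1.71 and 1.64 TPM in E934. Its lowest *msnsd* value was just above E934 replicate 1 (log2 fold change 0.78, standard error 0.31, limma adjusted p = 0.446). Lower in *msnsd* without overlap were the low-confidence models HORVU.MOREX.r3.1HG0005630 (2.43, 2.54 and 2.0 TPM in *msnsd*, 4.14, 4.42 and 3.61 TPM in E934, log2 fold change -0.78, limma adjusted p = 0.223) and HORVU.MOREX.r3.2HG0133710 (0, 0 and 0.32 TPM in *msnsd*, 0.50, 0.62 and 0.40 TPM in E934, limma adjusted p = 0.390). A further low-confidence model, HORVU.MOREX.r3.2HG0163800, had 6.0, 4.63 and 5.13 TPM in *msnsd* and 5.28, 3.79 and 2.27 TPM in E934 (log2 fold change 0.54, limma adjusted p = 0.555).

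The 14 genes of trehalose phosphate phosphatase summed to 152, 151 and 147 TPM in *msnsd* and 155, 147 and 133 TPM in E934. HORVU.MOREX.r3.1HG0056240 (chromosome 1H, 374897373 to 374901460) was the 1 of 12 tested with an unadjusted p under 0.05 (8.33%, against 10.7% of all genes tested). It had 3.12, 3.46 and 2.71 TPM in *msnsd* and 5.29, 5.41 and 4.40 TPM in E934. Every *msnsd* library was below every E934 library (log2 fold change -0.68, standard error 0.18, limma adjusted p = 0.250). The low-confidence model HORVU.MOREX.r3.7HG0651210 was listed at 0 in all *msnsd* libraries and at 0.60, 0.30 and 0 TPM in E934. Of the 30 trehalose genes tested, 4 had an unadjusted p under 0.05, 1 higher and 3 lower in *msnsd* (13.3%, against 10.7% of all genes tested), and the median log2 fold change was -0.22. The class summed to 759 ± 38.0 TPM in *msnsd* and 913 ± 200 TPM in E934 (SD, n = 3).

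**Figure D4:**
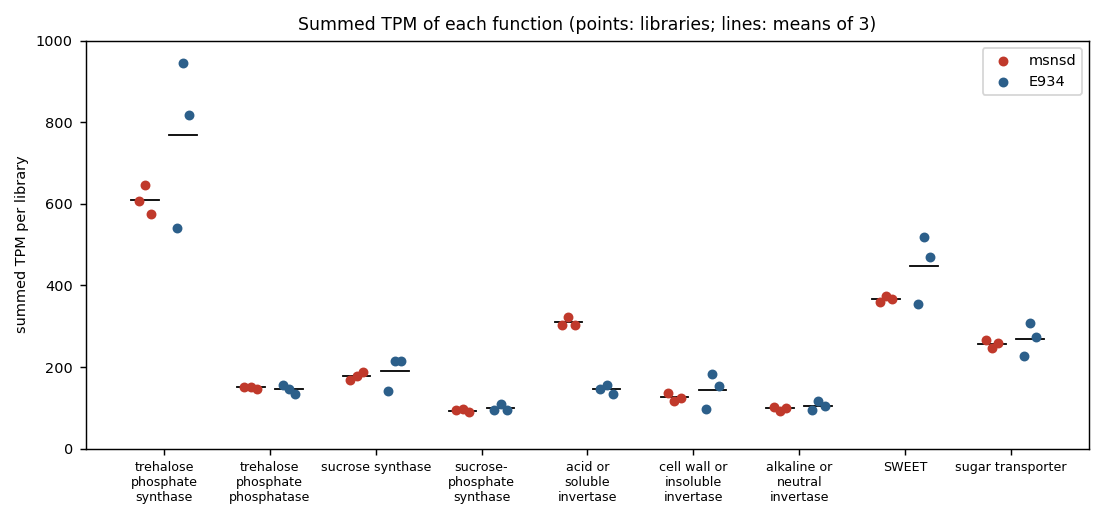
Summed TPM (y axis, from 0) of the genes of each function (x axis), with 1 point per library, *msnsd* in red to the left of E934 in blue, and lines at the means. Only the acid or soluble invertases, of the 9 functions drawn, have all *msnsd* libraries (304 to 323 TPM) above all E934 libraries (135 to 155 TPM), and the E934 libraries spread most in the trehalose phosphate synthases (541 to 945 TPM).

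Among the SWEETs, 3 genes carried most of the RNA and 1 of them was lower in *msnsd*. HORVU.MOREX.r3.7HG0658900 (chromosome 7H, 58427786 to 58430321) had 121, 155 and 126 TPM in *msnsd* and 169, 241 and 212 TPM in E934. The genotypes did not overlap. The log2 fold change came to -0.62 (limma standard error 0.15, adjusted p = 0.223), and -0.76 without E934 replicate 1 (adjusted p = 0.115). HORVU.MOREX.r3.3HG0307420 (chromosome 3H, 564700255 to 564703258), by contrast, had 145, 140 and 151 TPM in *msnsd* and 121, 159 and 157 TPM in E934, with overlap (log2 fold change 0.01, standard error 0.11, limma adjusted p = 0.990). A SWEET with little RNA, HORVU.MOREX.r3.6HG0624760 (chromosome 6H, 541443242 to 541445193), had 0.35, 0.51 and 0.50 TPM in *msnsd* and 1.45, 1.55 and 0.86 TPM in E934. All *msnsd* libraries were lower (log2 fold change -1.30, standard error 0.35, limma adjusted p = 0.277). In the other direction HORVU.MOREX.r3.7HG0684580 had 6.80, 5.23 and 7.44 TPM in *msnsd* and 4.21, 4.90 and 4.84 TPM in E934 (log2 fold change 0.46, standard error 0.18, limma adjusted p = 0.422).

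Of 5 tested sucrose transporters, the proton-driven carriers of phloem loading and unloading, 2 were higher in *msnsd* without overlap, against 8.73% of all genes tested, and neither passed the adjusted test. HORVU.MOREX.r3.4HG0403620 (chromosome 4H, 565018977 to 565023759) had 1.30, 1.33 and 1.53 TPM in *msnsd* and 0.30, 0.88 and 0.48 TPM in E934 (log2 fold change 1.28, standard error 0.39, limma adjusted p = 0.334). The gene HORVU.MOREX.r3.5HG0419590 (chromosome 5H, 424638 to 429044) had 15.71, 15.04 and 16.10 TPM in *msnsd* and 10.7, 13.69 and 12.99 TPM in E934, a smaller difference (log2 fold change 0.33, standard error 0.12, limma adjusted p = 0.399).

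Of 29 tested genes described only as sugar transporters, 5 had an unadjusted p under 0.05, 2 higher and 3 lower in *msnsd* (17.2%, against 10.7% of all genes tested). HORVU.MOREX.r3.5HG0478690 (chromosome 5H, 420741192 to 420745389) was even within each genotype, with 5.44, 5.43 and 5.65 TPM in *msnsd* and 7.65, 7.62 and 7.70 TPM in E934. The gap was wide beside this spread (log2 fold change -0.47, standard error 0.12, limma adjusted p = 0.232). Higher in *msnsd* without overlap were HORVU.MOREX.r3.1HG0053840 (16.5, 17.7 and 15.9 TPM in *msnsd*, 13.5, 13.5 and 13.3 TPM in E934, log2 fold change 0.31, limma adjusted p = 0.306) and HORVU.MOREX.r3.1HG0091860 (27.74, 25.01 and 24.48 TPM in *msnsd*, 20.5, 20.9 and 22.6 TPM in E934, log2 fold change 0.27, limma adjusted p = 0.372). Lower were the low-confidence models HORVU.MOREX.r3.7HG0676150 (0.48, 0.91 and 0.81 TPM in *msnsd*, 0.97, 1.70 and 2.49 TPM in E934, log2 fold change -1.08, limma adjusted p = 0.430) and HORVU.MOREX.r3.4HG0411610 (0.79, 0.44 and 0.76 TPM in *msnsd*, 1.29, 1.18 and 1.08 TPM in E934, log2 fold change -0.78, limma adjusted p = 0.459).

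The most abundant sugar transporter, HORVU.MOREX.r3.3HG0223490, a low-confidence model of 465 bp, had 76.4, 68.8 and 75.5 TPM in *msnsd* and 64.5, 115 and 90.03 TPM in E934, with overlap (log2 fold change -0.25, limma adjusted p = 0.680). HORVU.MOREX.r3.3HG0325280, described as the transporter ERD6, had 2.84, 0.55 and 1.39 TPM in *msnsd* and 0, 1.88 and 1.41 TPM in E934. Its log2 fold change of 1.08 (limma adjusted p = 0.764) rested on the 0 in E934 replicate 1 and was -0.29 without that library. In all, 10 of 49 tested transport genes had an unadjusted p under 0.05, 5 higher and 5 lower in *msnsd* (20.4%, against 10.7% of all genes tested), with a median log2 fold change of 0.01. The class summed to 690 ± 2.76 TPM in *msnsd* and 779 ± 132 TPM in E934 (SD, n = 3).

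E934 replicate 1 was low in many of these genes. Among 88 members with a mean of at least 1 TPM, 14 (15.9%) had at most 0.5 times the mean of E934 replicates 2 and 3 in E934 replicate 1, against 4.83% of the 23079 genes at that level. It was the lowest of the 6 libraries for 41 of 132 tested members (31.1%), against 19.0% of all genes tested. E934 replicate 2 was the highest for 51 of 132 (38.6%), against 28.6% of all genes tested. Apart from the genes given above, cell wall group members with this pattern, chosen after their values were seen, were HORVU.MOREX.r3.5HG0536260 (16.9, 9.69 and 14.5 TPM in *msnsd*, 2.48, 13.7 and 12.3 TPM in E934) and HORVU.MOREX.r3.6HG0548250 (16.1, 10.4 and 13.7 TPM in *msnsd*, 5.80, 14.3 and 12.3 TPM in E934). The green tissue genes were also lowest in this library, at 1223 TPM against 1592 and 1607 TPM in E934 replicates 2 and 3, and were at 1327 TPM in *msnsd* replicate 1 against 1725 and 1637 TPM in the other *msnsd* libraries. Their part in the result was not tested.

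Without E934 replicate 1, 34 of the 132 genes (25.8%) had an unadjusted p under 0.05, 13 higher and 21 lower in *msnsd*, against 15.6% of all genes tested (7.85% higher and 7.8% lower), and 0 were past the threshold. Of the 18 trehalose phosphate synthases tested, 6 were then lower and 2 higher at this p (44.4%, against 15.6% of all genes tested). With all libraries 2 were lower and 1 higher (16.7%, against 10.7%). In the whole trehalose class the count was 10 of 30 without this library (33.3%) and 4 with it (13.3%). This library was low in many members, so leaving it out raises their E934 mean. The share over all genes does not correct for that, so the added lower calls are not a separate result. The acid invertases HORVU.MOREX.r3.7HG0635300 and HORVU.MOREX.r3.7HG0635170 and the cell wall invertase HORVU.MOREX.r3.2HG0166450 had log2 fold changes of 1.18, 0.88 and 1.95 without this library, while the adjusted p of the first was 0.0718 and so no longer under 0.05.

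**Figure D5:**
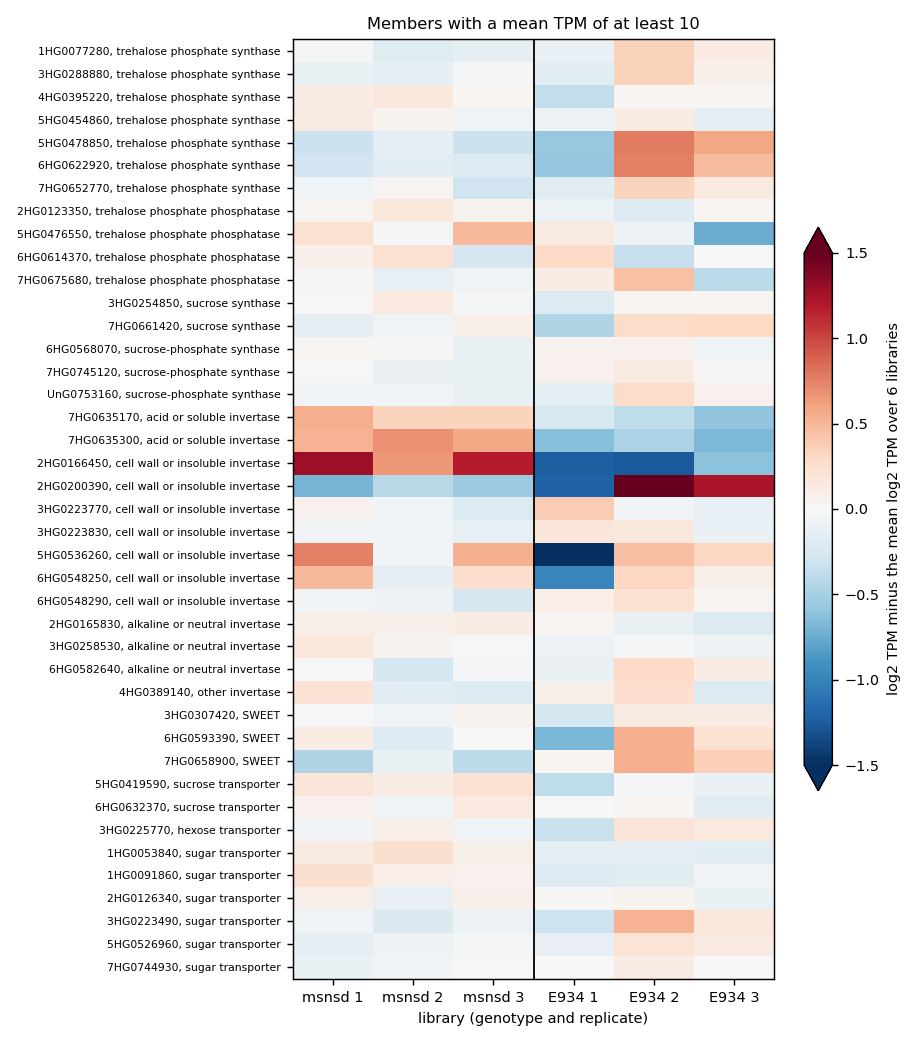
Log2 TPM minus the mean log2 TPM over the 6 libraries (colour, with values beyond -1.5 or 1.5 drawn at the ends of the scale) of the 41 members with a mean of at least 10 TPM (rows) in each library (columns, *msnsd* left of E934). The acid invertases and the cell wall invertase 2HG0166450 are red in all *msnsd* libraries and blue in all E934 libraries, while a group that includes trehalose phosphate synthases 5HG0478850 and 6HG0622920 is red only in E934 replicates 2 and 3.

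Members also differed in how well their gene models are supported, which the rule did not use. Of the 173 genes, 131 are high-confidence and 42 low-confidence models. The file gives the domain typical of the family to 114 of the 131 and to 9 of the 42. It gives that domain to 8 of the 19 genes described as trehalose phosphate synthase and to 20 of the 23 cell wall or insoluble invertases. The gene models spanned a median of 3742 bp for high-confidence and 490.5 bp for low-confidence genes. No domain was looked for in the 6 sucrose transporters and the 5 invertases of no stated kind, which count as without one.

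Other genes of the pathway were taken from lists of descriptions, and none of them was past the threshold. Starch genes had 7 of 50 tested with an unadjusted p under 0.05, 5 higher and 2 lower in *msnsd* (14.0%, against 10.7% of all genes tested), and 12 of 50, 8 higher and 4 lower, without E934 replicate 1 (24%, against 15.6%). The 5 higher ones include an ADP-glucose pyrophosphorylase gene, which supplies starch synthesis, HORVU.MOREX.r3.5HG0471840, with 33.3, 40.8 and 41.0 TPM in *msnsd* and 22.2, 26.7 and 25 TPM in E934 (log2 fold change 0.64, standard error 0.12, limma adjusted p = 0.133). Another gene of this enzyme, the low-confidence large subunit HORVU.MOREX.r3.5HG0443840, was lower without overlap, at 1.77, 1.71 and 1.45 TPM in *msnsd* and 5.66, 5.42 and 3.28 TPM in E934 (log2 fold change -1.45, standard error 0.26, limma adjusted p = 0.122). A beta-amylase gene, HORVU.MOREX.r3.1HG0057350, had 76.1, 82.4 and 88.0 TPM in *msnsd* and 81.2, 184 and 147 TPM in E934, so that E934 replicate 1 lay among the *msnsd* libraries (log2 fold change -0.66, limma adjusted p = 0.459). Hexokinase and fructokinase descriptions, which also take in phosphofructokinase, gave 2 of 13 higher and 0 lower (15.4%, against 10.7% of all genes tested). Without E934 replicate 1 they gave 1 higher (7.69%, against 15.6%). Of 11 genes with SNF1 in their description, 1 had an unadjusted p under 0.05 (9.09%, against 10.7% of all genes tested). The 11 include a component of the SWI/SNF chromatin complex that is no SnRK1 gene. Without E934 replicate 1, 5 had such a p, all lower (45.5%, against 15.6% of all genes tested). The 1 gene called with all libraries is a regulatory beta subunit, HORVU.MOREX.r3.4HG0380730. It had 92.1, 88.8 and 95.7 TPM in *msnsd* and 103, 119 and 105 TPM in E934 (log2 fold change -0.24, standard error 0.08, limma adjusted p = 0.360). Of 14 other monosaccharide and polyol transporters 1 was higher and 1 lower (14.3%, against 10.7% of all genes tested). Of 5 invertase inhibitors 1 was lower (20%, against 10.7%). Without E934 replicate 1, 1 inhibitor was higher and 0 lower (20%, against 15.6%). Of 5 genes of glucose activation 1 was lower (20%, against 10.7%), and the 1 fructan gene tested had an unadjusted p above 0.05. Counts of 1 or 2 genes are too small to read as a direction. The genes named here were chosen after their values were seen.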

How the data were processed

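Young panicles of *msnsd* and E934 were sequenced as RNA in 3 biological replicates each, grouped by the titles in the sample labels. The authors mapped clean reads (fastp is named in the submitters' processing notes) against Morex V3, ran Salmon 1.9.0 for quantification and deposited a TPM value for every gene in each library, rounded to hundredths. Such values do not show how many reads a library had, and the spread between 3 replicates is the only measure of error. The same table holds columns of the authors' DESeq2 comparison (fold changes, test statistics, p-values and mean normalized counts), which were not used. There were 0 columns of single libraries left out.

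The limma package (3.58.1, R 4.3.3) compared the genotypes on log2(TPM + 0.1) for genes averaging at least 0.1 TPM (28 genes at exactly 0.1 were lost to rounding). Variances were moderated toward a trend on the mean level, no covariate was used, and p-values were adjusted by Benjamini-Hochberg over every tested gene. TPM are not counts, so no count model was run. The thresholds of the study were kept. The fit was tested on simulated data. For named genes, all 20 ways of dividing the libraries gave an exact permutation p (two-sided). Python 3.11.15 was used for the rest. Members were found by words in the gene descriptions and sorted into classes by further words. The members, lists and classes were chosen with earlier results of these data known. In each class, genes were named if past the threshold, if their unadjusted p was under 0.05 without overlap between genotypes, if among the 3 most abundant, or if among the 2 largest rises or falls on the log2 scale. Alternatives were pseudocounts of 1 and 0.01, testing only genes averaging at least 1 TPM or testing every gene, scaling by median ratios or quantiles, no trend, a block for the replicate number, leaving out each library, other thresholds, high-confidence gene models alone and, added after the data were seen, the 28 genes kept.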

Additional observations from a re-analysis of the deposited data

How the results depend on the processing

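No member was past the threshold in the limma test, with 28 of 158 tested members at an unadjusted p under 0.05 (17.7%, against 10.7% of all genes tested). With the 28 genes at exactly 0.1 TPM kept, an alternative chosen after seeing the data, these counts were 0 and 28. There was 1 past the threshold among genes averaging at least 1 TPM, 1 with no fold change threshold and 2 where a log2 fold change of 1 in either direction and an adjusted p of 0.1 sufficed. When each library was left out, the number at an unadjusted p under 0.05 ran from 17 (without *msnsd* replicate 1, 10.8% against 9.33% of all genes tested) to 41 (without E934 replicate 1, 25.9% against 15.6%), and 0 were past the threshold in each. The members higher in *msnsd* were 17 with all libraries and 10 without *msnsd* replicate 1 or without *msnsd* replicate 3. Those lower were 11 with all libraries, 23 without E934 replicate 1, and 7 without E934 replicate 2 or *msnsd* replicate 1. Lower ones were also 7 among genes averaging at least 1 TPM and 6 among high-confidence models. With the replicate number as a block the count over both directions was 22, and 0 were past the threshold. The share over all genes is not given for these last counts, so they are not read as a result about the members. Deviations of same-numbered libraries had correlations of 0.02, -0.07 and 0.04 over all genes tested. Both replicate 1 libraries lay together on the second principal component, at -50.0 (*msnsd*) and -49.0 (E934). Whether same-numbered libraries shared a batch was not tested. Without the most abundant gene, the classes in *msnsd* and E934 summed to 556 and 676 TPM (trehalose), 143 and 150 TPM (sucrose synthases and sucrose-phosphate synthases), 319 and 313 TPM (invertases), and 556 and 572 TPM (transport). Of 37 named genes, 5 changed sign when 1 library was left out. These were HORVU.MOREX.r3.7HG0661420 (-0.32 to 0.051 over those fits, on the log2 scale), HORVU.MOREX.r3.6HG0568070 (-0.080 to 0.0025), HORVU.MOREX.r3.2HG0173640 (-1.09 to 0.38), HORVU.MOREX.r3.3HG0307420 (-0.12 to 0.072) and HORVU.MOREX.r3.3HG0325280 (-0.29 to 1.87). The cause was not tested. The other counts over both directions stayed within 1.5 times, and the other class sums within 1 SD, of their values under the remaining alternatives. Depth is unknown, so what depth limits cannot be given.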

Other observations

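Of the 33 genes set apart 26 were tested, and none was past the threshold (smallest limma adjusted p 0.216). At an unadjusted p under 0.05 there were 6, 6 higher and 0 lower (23.1%, against 10.7% of all genes tested), and 7 without E934 replicate 1, 5 higher and 2 lower (26.9%, against 15.6%). The median log2 fold change of the 26 was 0.12, with 15 above 0 and 11 below. The following genes were chosen after their values were seen. In the invertase/pectin methylesterase inhibitor family, whose proteins block either invertases or enzymes that modify pectin, HORVU.MOREX.r3.2HG0100080 had 9.26, 9.59 and 9.67 TPM in *msnsd* and 6.91, 7.02 and 5.79 TPM in E934 (log2 fold change 0.53, limma adjusted p = 0.216), and HORVU.MOREX.r3.5HG0433680 had 24.4, 27.4 and 26.5 TPM in *msnsd* and 20.9, 17.4 and 20.4 TPM in E934 (log2 fold change 0.42, limma adjusted p = 0.240). The low-confidence gene HORVU.MOREX.r3.2HG0098830 had 10.6, 5.93 and 10.4 TPM in *msnsd* and was listed at 0 in 2 E934 libraries and at 11.9 TPM in E934 replicate 3, so the genotypes overlapped. The nucleotide sugar transporters, which carry activated sugars into the Golgi and endoplasmic reticulum, summed to 354, 328 and 340 TPM in *msnsd* and 301, 300 and 297 TPM in E934, without overlap. Of these genes 2 of 9 tested had an unadjusted p under 0.05, 2 higher and 0 lower in *msnsd* (22.2%, against 10.7% of all genes tested). Without E934 replicate 1, 2 were higher and 1 lower (33.3%, against 15.6%). The 2 genes, HORVU.MOREX.r3.5HG0487290 and HORVU.MOREX.r3.1HG0069290, averaged 119 and 106 TPM in *msnsd* and 98.7 and 85.2 TPM in E934. They held most of the sum, and so few genes are too small a count to read as a result about the group.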
